A study of Saccharomyces cerevisiae with 12 samples.

Results

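The response to dithiothreitol (DTT) of yeast without Ire1p was set against that of yeast without Gcn4p, using 6 of the 12 arrays of the series, 3 from each strain. DTT is a reducing agent that disturbs disulfide formation in the endoplasmic reticulum (ER), so that unfolded proteins accumulate there. The strains were *Saccharomyces cerevisiae* of mating type a with mutations in *ura3*, *leu2*, *his3*, *trp1*, *ade2*, and *can1*. Δ*ire1* carried *TRP1* in place of *IRE1*, and Δ*gcn4* carried *his5+* in place of *GCN4*, so the strains also differ in these markers. Cells were grown to midlog phase in rich medium, and cells treated with 2 mM DTT for 30 min were compared with untreated cells of the same strain on a two-color spotted array. Each value is a log2 ratio of treated over untreated cells, and all 6024 elements were measured on every array. WT arrays (3) served to sort genes into classes, and the 3 arrays of Δ*gcn2*, in which *his5+* replaces *GCN2*, took no part in the sorting. Because both channels of an array came from one strain, the ratio of a deleted gene does not check the label of the strain.

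The unfolded protein response (UPR) of yeast begins with Ire1p, a kinase and endoribonuclease of the ER membrane, which removes an intron from the *HAC1* mRNA. The spliced mRNA is translated into Hac1p, a bZIP transcription factor that binds unfolded protein response elements (UPREs) in promoters. Gcn4p is another bZIP factor, best known for inducing amino acid synthesis when amino acids are scarce, and its translation is raised by the kinase Gcn2p. The comparison asks which genes of the response are lost with Ire1p but kept without Gcn4p, and which depend on both.

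The study drew its motifs from promoters of genes that are measured here, and 4 are shown because their genes differ in how they respond in the 2 strains, with *ERO1* and *LHS1* in one class and *OPI3* and *DHH1* in others. Capitals mark the motif, and the letters around it are its context in the source promoter. The *ERO1* motif is named UPRE-2 and the *DHH1* motif UPRE-3 in the study. Both were activated by ER stress in its reporter assay, whereas it reports no activity above baseline for the *LHS1* and *OPI3* motifs.
ERO1: atacggagTACGTGtcataaaa
DHH1: taagaaaaAGGACAACacaatctt
LHS1: gctaattaGGCGCGCGcctcaaat
OPI3: caggtcttCCACGTGGaactgcca
*OPI3*, a methyltransferase of phosphatidylcholine synthesis, had log2 ratios of −0.23, −0.39, and −0.05 in Δ*ire1* and of 1.11, 1.31, and 1.40 in Δ*gcn4*, and the strains did not overlap. *ERO1*, the oxidase that supplies disulfide bonds in the ER, was at 0.25, 0.33, and 0.53 in Δ*ire1*, at 0.97, 1.11, and 1.22 in Δ*gcn4*, and at 1.96 on average in WT. *LHS1*, an Hsp70-like exchange factor for Kar2p, was at 0.52, 0.32, and −0.56 in Δ*ire1* and at 1.67, 1.55, and 1.66 in Δ*gcn4*, against a WT mean of 2.63. *DHH1*, an RNA helicase of mRNA decay, was at −0.07, 0.82, and −0.17 in Δ*ire1* and at 0.24, 1.07, and 0.48 in Δ*gcn4*, and these values overlapped. The 4 genes thus ran from strains far apart, with Δ*gcn4* at or above the WT mean (*OPI3*, 1.27 against 0.95), to a difference that did not pass the test (*DHH1*, −0.40 ± 0.25 (SE), limma adjusted p = 0.25). Without Δ*ire1* replicate 2 the *DHH1* difference was −0.72, with an adjusted p of 0.033.

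The arrays were of similar spread, with an SD over elements of 0.458 to 0.529 in Δ*ire1* and of 0.512 to 0.587 in Δ*gcn4*, and their medians lay between −0.194 and −0.131. Replicate 3 of Δ*ire1* stood apart from the other replicates of its strain, with correlations over elements of 0.642 and 0.663 where those had 0.846 between them. The correlations within Δ*gcn4* were 0.729 to 0.906. Spot signals were not used, so what can be told apart is set by having 3 arrays for each strain, and an element that did not pass may still differ. After DTT, 733 elements (12.2%) were called higher and 2145 (35.6%) lower in Δ*ire1*, and 949 (15.8%) higher and 2329 (38.7%) lower in Δ*gcn4*, at an adjusted p of 0.05 by limma. These counts depend on where zero is set, since with each array centered on its median 1321 were higher and 1399 lower in Δ*ire1*, and 1540 and 1589 in Δ*gcn4*.

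In the difference itself, 772 elements (12.8%) were lower in Δ*ire1* than in Δ*gcn4* and 797 (13.2%) were higher. Of these, 122 and 91 differed by at least 1 on the log2 scale. For 5093 elements (84.5%) the 95% interval of the difference lay within 1 of zero on the log2 scale, and the median difference over all elements was 0.03. Values of the 3 arrays of one strain did not overlap those of the other for 37.4% of all elements, so a lack of overlap by itself is common. With Δ*gcn4* replicate 3 left out, 512 elements were lower and 508 higher, and with Δ*gcn4* replicate 2 left out 515 were higher.

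The lower genes were mostly genes that Δ*gcn4* raised or that Δ*ire1* reduced. Of the 772, 429 were called higher after DTT in Δ*gcn4* (15.8% of all elements were) and 466 were called lower in Δ*ire1* (35.6%). Both held for 132. The higher genes were mostly those that fell in Δ*gcn4*. Of the 797, 587 were called lower after DTT in Δ*gcn4* (38.7% of all elements were) and 261 were called higher in Δ*ire1* (12.2%). Both held for 69. The genes were chosen by the difference between the strains, which favors such calls, so these counts are a description.

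**Figure D1:**
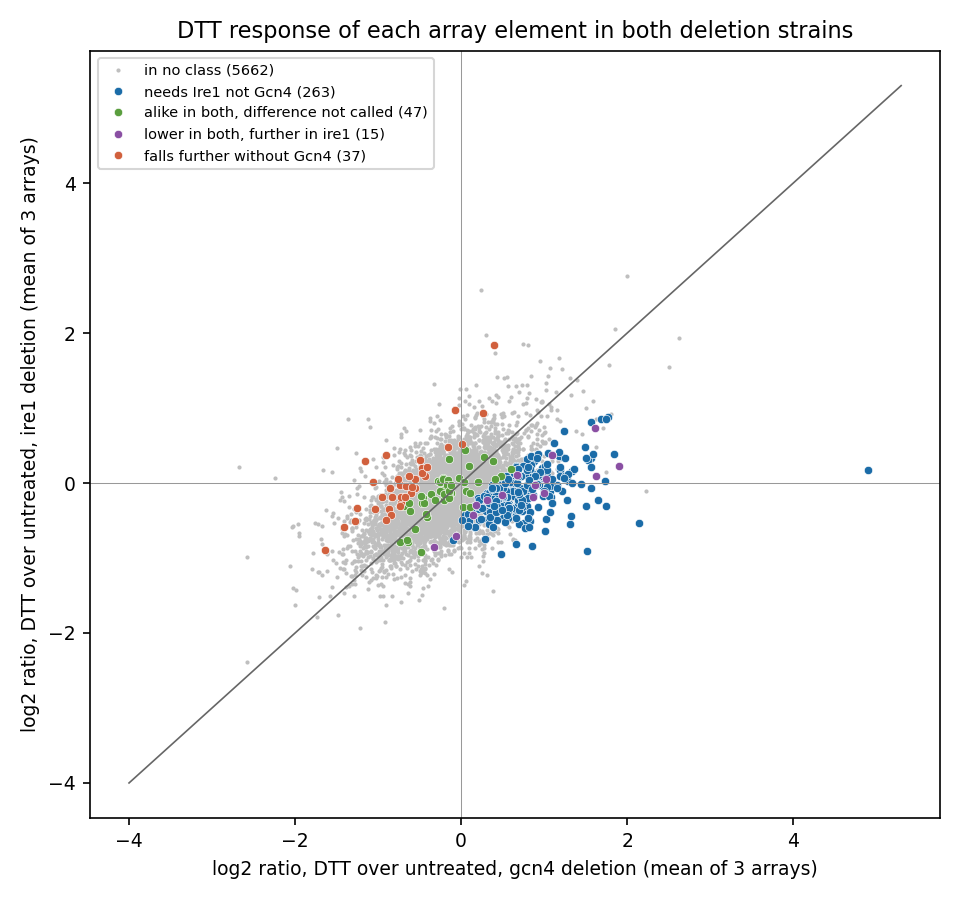
Mean log2 ratio of DTT over untreated cells in Δ*gcn4* (x axis) and Δ*ire1* (y axis), 3 arrays each, for 6024 elements, with the line of equal response. The 263 genes that need Ire1p but not Gcn4p lie to the right at Δ*ire1* values around −0.14, as do the 15 genes lower in both strains and further in Δ*ire1*, while genes alike in both lie about the line and genes that fell further without Gcn4p lie to its left.

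Genes that need Ire1p but not Gcn4p were taken as those induced by DTT in WT, below both other strains in Δ*ire1*, and neither called lower in Δ*gcn4* than in WT nor allowed by the 95% interval to lie 1 or more below WT. They numbered 263, out of 460 genes that WT induced and that Δ*ire1* left below WT. For scale, DTT induced 18.4% of all elements in WT, and the shares of elements below WT were 11.3% for Δ*ire1* and 1.94% for Δ*gcn4*. The class was defined by these contrasts, so its values are a description. Its median log2 ratio was −0.14 for Δ*ire1*, 0.68 for Δ*gcn4*, and 0.66 for WT. On the arrays of Δ*gcn2*, which the sorting did not use, the class median was 0.86. There 237 of the 263 were called higher, against 348 of the 460 genes above and 25.2% of all elements. The class was chosen for induction in WT, so a share above that of all elements does not test it. In Δ*ire1*, 23 of the 263 were still called higher after DTT and 79 were called lower. In Δ*gcn4*, 245 of the 263 were called higher, and the lowest mean was −0.1. The bound of 1 is larger than the WT median of 0.66, so it does not by itself exclude the loss of a whole response. The member nearest the bound on Δ*gcn4* was *INO1*, which differed from WT by −0.57 (interval −0.93 to −0.2). The gene nearest outside was *SWP82*, whose interval reached −1.07. The intervals of *INO1* and of *MCD4*, another member (−0.78 to −0.14), lay wholly below zero, though neither passed (limma adjusted p = 0.1 and 0.13). Membership thus does not exclude a partial loss without Gcn4p.

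*COS4* had the largest difference of all elements. Its log2 ratios were 0.11, 0.21, and 0.21 in Δ*ire1* and 4.10, 5.18, and 5.41 in Δ*gcn4*, a difference of −4.72 ± 0.24 (SE), or 26.4-fold (adjusted p = 1.1e-08). The Cos proteins are membrane proteins that help to sort cargo into the endosomal pathway, and 8 of the 11 measured members were lower in Δ*ire1* while none was higher. *COS7* (−1.17), *COS8* (−0.86), and *COS5* (−0.82) followed, with adjusted p of 0.00068, 0.00038, and 0.0019. The family is closely related in sequence, so a spotted element may also bind the transcripts of other members.

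*PUF4*, a Pumilio-type RNA-binding protein, was at −0.44, −0.42, and −0.72 in Δ*ire1* and at 1.77, 2.21, and 2.44 in Δ*gcn4*. It thus moved in opposite directions in the 2 strains, and its difference of −2.67 ± 0.16 was 6.35-fold (adjusted p = 1.2e-07). *DER1*, a membrane protein of ER-associated degradation, was at −0.05, −0.51, and −0.37 against 1.81, 1.76, and 1.66 (−2.05 ± 0.14, adjusted p = 2.1e-07). *STP22*, a subunit of the ESCRT-I complex, was at −0.16, −0.61, and −0.88 against 1.10, 1.48, and 1.35 (−1.86 ± 0.17). *CLP1*, a factor of mRNA cleavage and polyadenylation, was at −0.62, −0.60, and −0.09 against 1.13, 1.30, and 1.53. *HEM15*, the ferrochelatase of heme synthesis, and *HMG2*, an HMG-CoA reductase isozyme, differed by −1.65 and −1.69, with adjusted p of 2.6e-05 and 0.0007. In Δ*gcn4* these genes were above their WT means, apart from *HMG2* (0.85 against 0.92 in WT).

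The class reached outside the secretory pathway. *TOS3*, a kinase that activates Snf1p, was at 0.26, 0.25, and 0.65 in Δ*ire1* and at 1.67, 1.99, and 1.85 in Δ*gcn4* (−1.45 ± 0.14, adjusted p = 1.2e-05). *INO1*, the inositol synthase, was at 0.48, 0.23, and 0.45 against 1.47, 1.57, and 1.73 (−1.20 ± 0.17), with a WT mean of 2.16. With *OPI3* and the phosphatase gene *LPP1* (−1.15), *INO1* made up 3 of the 4 members of inositol and phospholipid synthesis that were lower in Δ*ire1*, and none of the 19 measured was higher. The fourth, *PSD1*, was not in the class, and its difference of −0.42 (adjusted p = 0.032) did not pass without replicate 1 or 2 of Δ*ire1* or replicate 2 or 3 of Δ*gcn4* (adjusted p from 0.08 to 0.12). *SKG3* and *ULI1* were also among the largest differences (−1.84 and −2.34) but were not in the class, the first because it was not induced in WT (−0.29) and the second because the interval of Δ*gcn4* minus WT (−0.95, interval −1.57 to −0.33) reached past the bound. In 28 of the 263 cases the element had no gene name, and element 1928 was the highest of these in Δ*gcn4* (1.52, 1.77, and 1.90, against 0.03, 0.01, and 0.06 in Δ*ire1*).

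**Figure D2:**
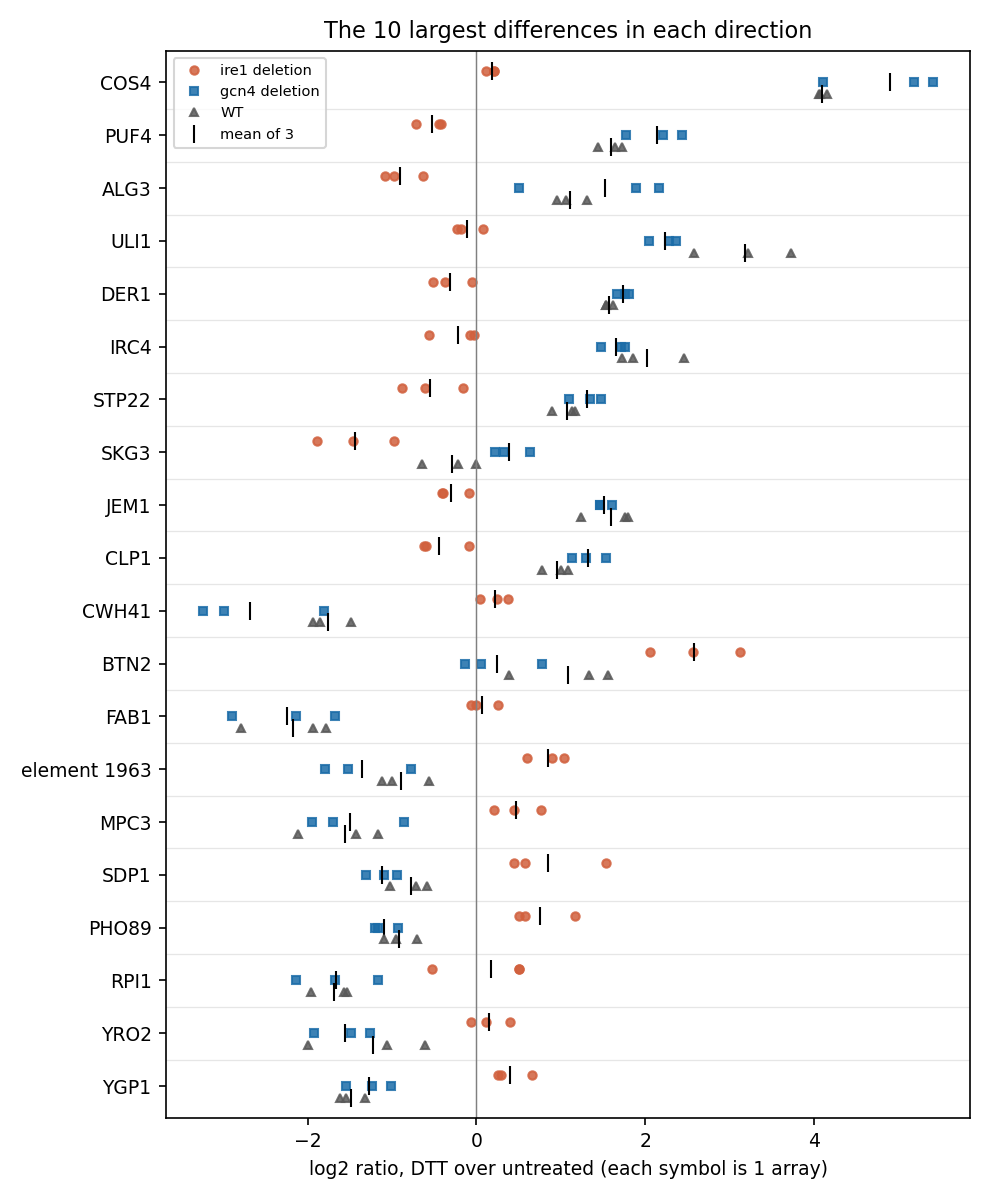
Log2 ratio of DTT over untreated cells on each array (symbols) and the mean of 3 (bars) for the 10 largest differences in each direction among genes whose arrays do not overlap. In the upper 10 the Δ*ire1* arrays lie near or below zero and the Δ*gcn4* arrays near or above WT, apart from *ULI1*. For most of the lower 10, though not *BTN2*, the Δ*gcn4* arrays lie below zero.

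The chaperones and folding enzymes of the ER were mostly lower in Δ*ire1*. Of 17 measured, 11 were lower in Δ*ire1* than in Δ*gcn4* (64.7%, against 12.8% of all elements), 1 was higher, and 5 did not pass. The median difference was −0.79, and the median log2 ratio was −0.17 in Δ*ire1* and 0.76 in Δ*gcn4*. *KAR2*, the ER Hsp70 known as BiP, kept part of its response without Ire1p. It was at 0.92, 0.59, and 1.05 in Δ*ire1* (adjusted p = 1.3e-05 against no change), at 1.73, 1.55, and 1.79 in Δ*gcn4*, and at 1.96 in WT, and the strains differed by −0.84 ± 0.15 (1.79-fold, adjusted p = 0.0011).

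Among the partners of Kar2p, the J-protein gene *JEM1* showed the widest gap, with −0.09, −0.41, and −0.39 in Δ*ire1* against 1.46, 1.46, and 1.61 in Δ*gcn4* (−1.81 ± 0.17, adjusted p = 1.1e-05). *SCJ1*, another J-protein, was at −0.08, −0.09, and 0.46 against 0.94, 0.70, and 1.03. Both stayed near their WT means (1.60 and 0.83) without Gcn4p. *ERJ5*, a J-protein as well, was at −0.31, 0.00, and −0.08 in Δ*ire1* and at 0.05, −0.19, and −0.23 in Δ*gcn4*, below the WT mean of 0.80 in both, and its difference of −0.01 had a 95% interval of −0.38 to 0.37. The exchange factor *SIL1* lay in between, at 0.46, 0.35, and −0.12 in Δ*ire1* against 2.21, 1.77, and 1.73 in Δ*gcn4*, with a WT mean of 2.89 (−1.67 ± 0.17, adjusted p = 1.9e-05).

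Among the enzymes of disulfide formation, *MPD1* and *EUG1* followed the pattern of *SIL1* and *ERO1*. These disulfide isomerase homologs averaged −0.13 and −0.18 without Ire1p, 1.00 and 0.86 without Gcn4p, and 1.93 and 1.89 in WT, so Δ*gcn4* kept a part of the response that Δ*ire1* did not. Their differences were −1.13 ± 0.15 and −1.04 ± 0.18 (adjusted p = 0.00015 and 0.00099). *PDI1*, the main disulfide isomerase, was at −0.63, −0.24, and 0.45 against 0.41, 0.66, and 0.50, and the arrays overlapped. Its difference of −0.66 (adjusted p = 0.036) did not pass without Δ*ire1* replicate 1 (−0.42, adjusted p = 0.17) or 2 (−0.61, 0.10), or Δ*gcn4* replicate 2 (−0.60, 0.11) or 3 (−0.67, 0.082). *MPD2* and the prolyl isomerase *FPR2* were lower in Δ*ire1* by −0.82 and −1.29. *ERV2*, *CPR5*, *EPS1*, and *ROT1* did not pass and differed by −0.11, −0.10, −0.06, and 0.05, and *ERV2* alone of these passed when an array was left out (Δ*gcn4* replicate 1, −0.52, adjusted p = 0.038). The calnexin homolog *CNE1* was the single member that was higher in Δ*ire1* (0.42, adjusted p = 0.034), and it did not pass when any 1 array other than Δ*ire1* replicate 3 was left out (adjusted p from 0.057 to 0.12).

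**Figure D3:**
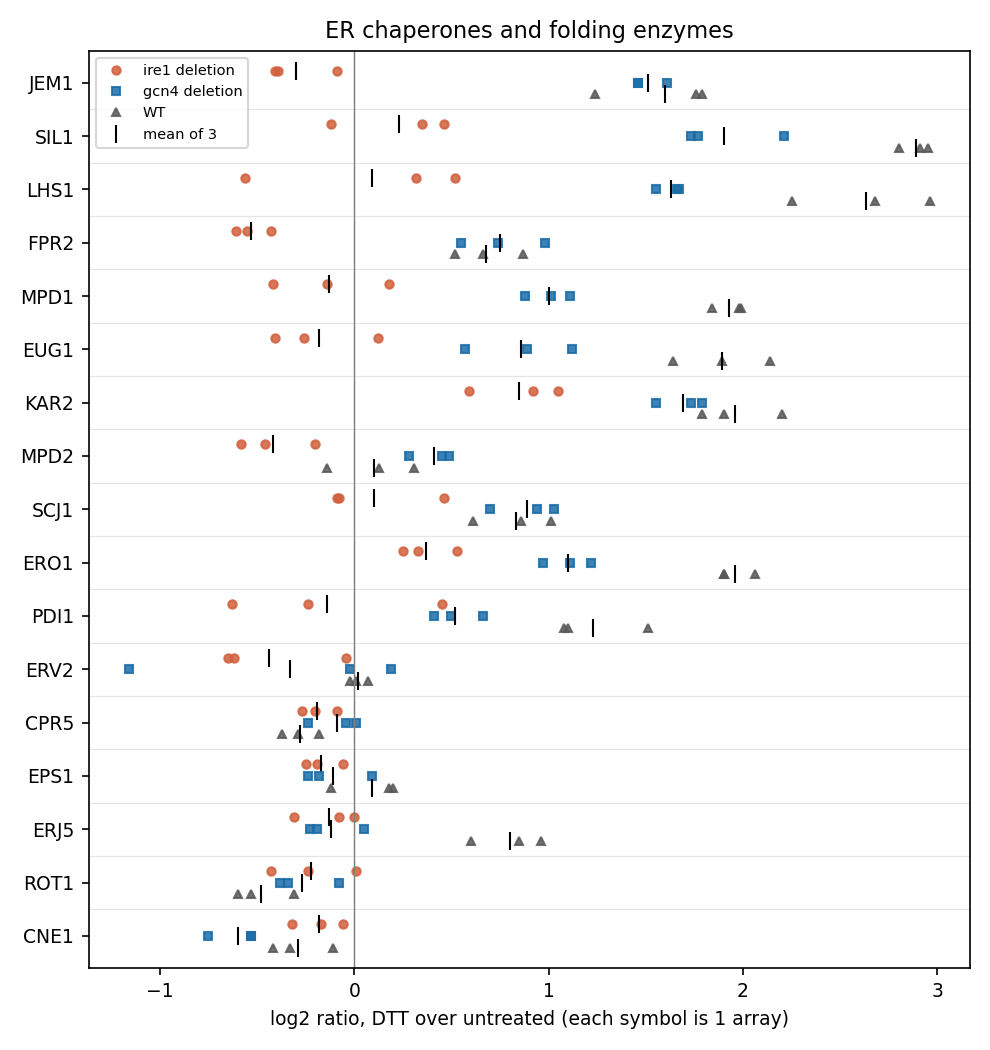
Log2 ratio of DTT over untreated cells on each array for the 17 ER chaperones and folding enzymes, ordered by the difference between Δ*ire1* and Δ*gcn4*. *JEM1*, *FPR2*, and *SCJ1* have Δ*gcn4* arrays around those of WT, whereas *SIL1*, *LHS1*, *MPD1*, *EUG1*, and *ERO1* have Δ*gcn4* arrays between those of Δ*ire1* and WT.

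*SIL1*, *LHS1*, *MPD1*, *EUG1*, and *ERO1* belong to a set of 15 genes that were induced in WT and lower than WT in both strains, but further lowered in Δ*ire1*. This set was formed after the values were seen. Its median was −0.13 for Δ*ire1*, 0.86 for Δ*gcn4*, 1.58 for WT, and 1.01 for Δ*gcn2*. It also held *DFM1*, a relative of *DER1*, with means of −0.03, 0.89, and 1.58 in Δ*ire1*, Δ*gcn4*, and WT (−0.92, adjusted p = 0.00046 between the deletion strains). *SFB2*, a cargo adaptor of COPII vesicles, had means of 0.05, 1.02, and 1.87 (−0.97, adjusted p = 0.0011).

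In the glycosylation pathways the 2 strains separated by enzyme. Of 25 genes of N-glycosylation, 10 were lower in Δ*ire1* (40%) and 2 were higher (8%), against 12.8% and 13.2% of all elements. *ALG3*, a mannosyltransferase that builds the lipid-linked glycan, was at −1.08, −0.97, and −0.63 in Δ*ire1* and at 0.51, 2.16, and 1.89 in Δ*gcn4* (−2.42 ± 0.30, adjusted p = 6.9e-05). *ALG7*, which starts that glycan, was at −0.80, −0.45, and −0.20 against 0.92, 1.02, and 1.12 (−1.51 ± 0.15), and *ALG6*, which adds its first glucose, differed by −1.23. *CWH41*, glucosidase I, went the other way by more than any other element. It was at 0.24, 0.04, and 0.38 in Δ*ire1*, at −1.80, −3.24, and −2.99 in Δ*gcn4*, and at −1.76 in WT, a difference of 2.90 ± 0.27 (adjusted p = 1.1e-05).

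*DPM1*, which makes the mannose donor of the ER lumen, was at −0.93, −0.60, and −0.24 in Δ*ire1* and at −1.88, −1.25, and −1.10 in Δ*gcn4*, against 0.28 in WT. The difference of 0.82 (adjusted p = 0.028) did not pass without Δ*ire1* replicate 2 (adjusted p = 0.066) or 3 (0.087) or without Δ*gcn4* replicate 1 (0.10). Of 7 protein O-mannosyltransferase genes 2 were lower in Δ*ire1* and none was higher. *PMT2* was at −0.88, −0.70, and −0.56 in Δ*ire1* and at −0.41, 0.13, and 0.10 in Δ*gcn4* (−0.65 ± 0.15, adjusted p = 0.0066), both far below the WT mean of 1.20. *PMT3* was at 0.05, 0.04, and 0.30 against 0.77, 0.90, and 1.61 (−0.96, adjusted p = 0.014), and its adjusted p was 0.077 without Δ*gcn4* replicate 3. *PMT1* was at −0.28, −0.32, and −0.32 against −0.86, −0.86, and −0.34, below the WT mean of 1.14 in both, and its difference of 0.38 had an adjusted p of 0.10, or 0.032 without Δ*gcn4* replicate 3.

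Of 20 GPI anchor genes 5 were lower in Δ*ire1* (25%) and none was higher, led by *MCD4*, an ethanolamine phosphate transferase (−1.27 ± 0.15, adjusted p = 5.2e-05). In ER-associated degradation 5 of 16 were lower (31.2%) and 2 were higher (12.5%), the latter near the 13.2% of all elements. *HRD3*, a partner of the ubiquitin ligase Hrd1p, was at 0.44, 0.10, and −0.18 in Δ*ire1* and at 1.20, 1.26, and 1.42 in Δ*gcn4* (−1.18 ± 0.17, adjusted p = 0.00019). *HRD1* itself was at 0.52, −0.05, and 0.41 against 0.40, 0.22, and 0.52, below the WT mean of 1.66 in both, with a difference of −0.09 and an interval of −0.51 to 0.34.

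Subunits of the vesicle coats also split, and among those named here the split followed the place in the deposited table, described below. *SEC26* and *ERV25* are among its first 139 rows, and *SEC23*, *ERP2*, *RET2*, and *SEC21* are not. Of 27 genes of COPII vesicles and ER exit 10 were lower in Δ*ire1* (37%) and 2 were higher (7.41%). *SEC23*, a COPII coat subunit, was at −0.60, −0.40, and 0.18 against 0.37, 1.51, and 1.43 (−1.38 ± 0.25, adjusted p = 0.0013), and *ERP2*, of the p24 cargo receptors, was at −0.45, −0.61, and −0.47 against 0.68, 0.95, and 0.85 (−1.34 ± 0.13, adjusted p = 1.1e-05). Another p24 gene, *ERV25*, was at −0.61, −0.55, and −0.35 in Δ*ire1* but at −1.34, −0.88, and −1.62 in Δ*gcn4* (0.77 ± 0.17, adjusted p = 0.0039). Of 15 genes of COPI vesicles 5 were lower (33.3%) and 2 were higher (13.3%). Over all elements 12.8% were lower and 13.2% higher, so the shares of higher genes are not results about these lists. The coatomer genes *RET2* and *SEC21* were lower in Δ*ire1* by −1.10 and −0.85 (adjusted p = 0.00017 and 0.0039) and stood near their WT means in Δ*gcn4*. The coatomer gene *SEC26* was at 0.13, 0.00, and 0.02 in Δ*ire1* and at −0.48, −0.77, and −0.41 in Δ*gcn4* (0.60 ± 0.13, adjusted p = 0.0035), against 1.12 in WT.

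**Figure D4:**
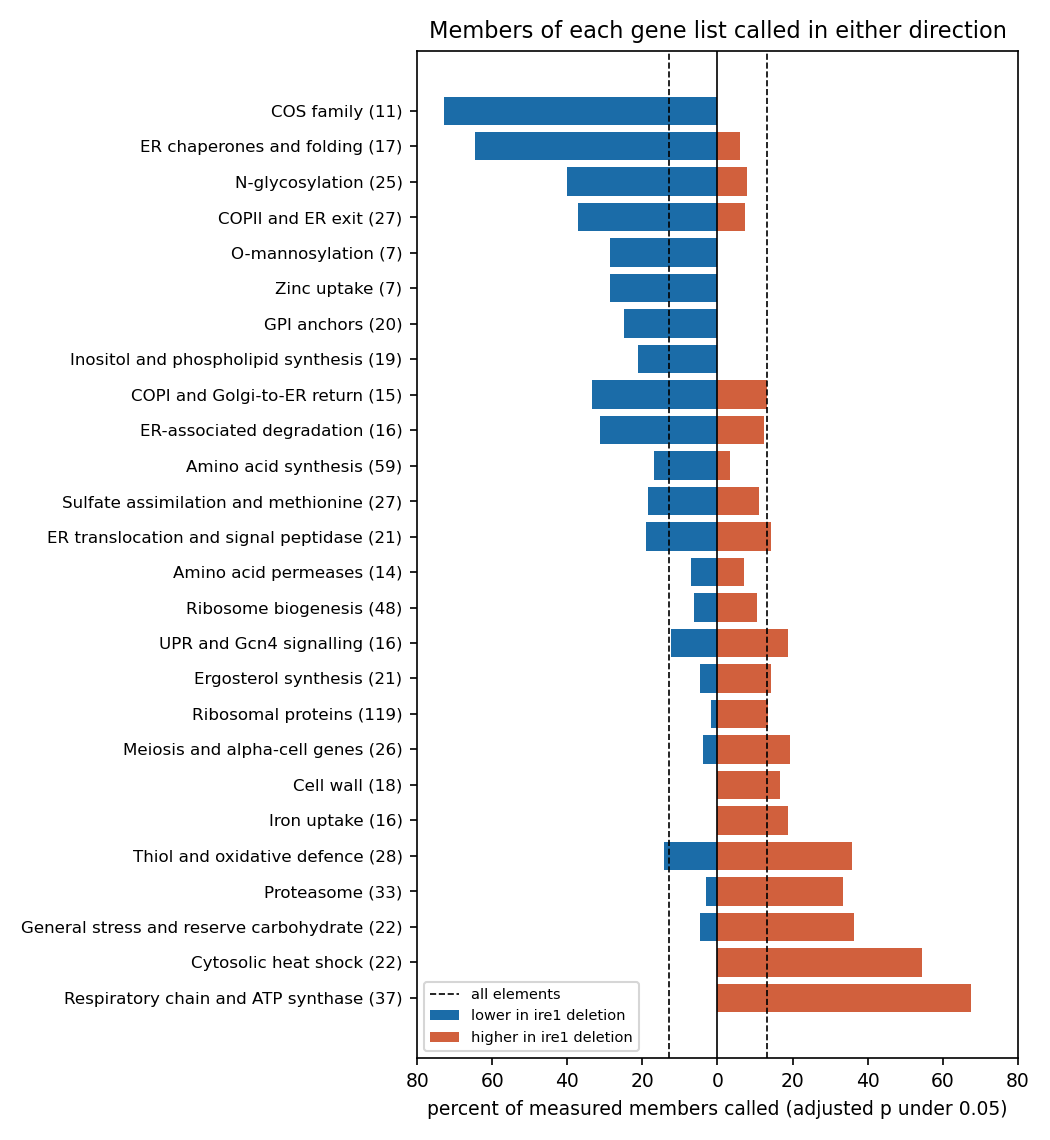
Percent of the measured members of each gene list (number in brackets) that were lower (left) or higher (right) in Δ*ire1* than in Δ*gcn4*, with dashed lines at the shares of all elements, 12.8% and 13.2%. The COS family and the ER chaperones extend farthest to the left, and the respiratory chain and the cytosolic heat shock genes farthest to the right.

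Genes that fell further without Gcn4p were taken as those lower in Δ*gcn4* than in both Δ*ire1* and WT, and numbered 37. Of these, 32 were called lower after DTT in Δ*gcn4*, 17 were called higher in WT, and 16 were also lower in Δ*ire1* than in WT. The median was −0.05 for Δ*ire1*, −0.72 for Δ*gcn4*, and 0.22 for WT, and it was −0.44 on the arrays of Δ*gcn2*, where 24 of the 37 were called lower (37.8% of all elements were). The class was chosen for low values in Δ*gcn4*, so these values are a description, and the share in Δ*gcn2* does not test it. With array weights the class held 69 genes, and with 1 array left out it held 25 to 43.

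*RSC1*, a subunit of the RSC chromatin remodeling complex, was at 0.09, 0.05, and −0.10 in Δ*ire1* and at −1.27, −0.80, and −1.10 in Δ*gcn4* (1.07 ± 0.16, adjusted p = 0.00027), against 0.53 in WT. *MIX23* was at 0.49, 0.26, and 0.38 in Δ*ire1*, at −0.83, −0.97, and −0.93 in Δ*gcn4*, and at 0.56 in WT (1.29 ± 0.14, adjusted p = 2.4e-05), so it responded as in WT without Ire1p and in the opposite direction without Gcn4p. *KEG1*, a membrane protein required for glucan synthesis, was at 0.11, −0.14, and −0.04 against −0.94, −0.53, and −0.75 (0.71 ± 0.16, adjusted p = 0.0039). *SEC27*, *POF1*, and *YOL057W* were, within this class of 37, also among the 10 farthest below WT in Δ*gcn4*, with differences of 0.49, 0.67, and 0.52 (adjusted p = 0.039, 0.019, and 0.03). *SEC27* did not pass when any 1 array other than Δ*gcn4* replicate 1 was left out (adjusted p from 0.063 to 0.12). *POF1* did not pass without Δ*ire1* replicate 2 (0.055) or Δ*gcn4* replicate 2 (0.067), and *YOL057W* did not without replicate 1 or 2 of either strain (0.06 to 0.14).

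Genes alike in both strains were taken as those induced in WT, lower than WT in both, and with the 95% interval of the difference within 1 of zero. They numbered 62, of which 47 did not pass the test of the difference and 15 did. Of the 15, 8 were in the class that falls further without Gcn4p, and 7 were in the set lower in both and further in Δ*ire1*. Their median was −0.15 for Δ*ire1*, −0.21 for Δ*gcn4*, 0.79 for WT, and 0.06 for Δ*gcn2*. The bound of 1 is larger than this WT median, so it does not by itself exclude a difference of a whole response. Of all elements 84.5% met the condition on the interval. With the interval held within 0.5 of zero, 19 genes were left. The member with the widest interval was *MUD2* (0.99), and the gene nearest outside was *ERO1* (1.01).

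*MGR1*, a subunit of the mitochondrial i-AAA protease, was farthest below WT. It was at −0.31, −0.35, and 0.07 in Δ*ire1* and at −0.60, −0.76, and −0.03 in Δ*gcn4*, against 1.69, 2.11, and 1.64 on the WT arrays. *EAP1*, which binds the cap-binding factor eIF4E, was at −1.09, −0.69, and −0.60 against −0.89, −0.57, and −0.44, with a difference of −0.16 (interval −0.53 to 0.21). *SNA4* was at −0.50, −0.41, and 0.27 against −0.86, 0.21, and 0.03, with a difference of −0.01 and an interval of −0.55 to 0.53, and it was at 1.34 in WT and 1.00 in Δ*gcn2*. *SEC59*, the dolichol kinase, passed the test (−0.54, adjusted p = 0.009) and yet stayed within the bound, at −0.13, −0.17, and −0.40 against 0.24, 0.27, and 0.41.

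The classes were unevenly placed in the deposited table. At its top stand 139 rows that make up 6 runs, of 11, 2, 35, 6, 76, and 9 elements, in each of which systematic names ascend, and from there the table follows systematic order by chromosome. The table gives no heading for these runs, and whether they were chosen on these arrays was not tested. They held 55 of the 62 genes alike in both, 27 of the 37 that fell further without Gcn4p, and 14 of the 15 lower in both and further in Δ*ire1*, but 8 of the 263 that need Ire1p but not Gcn4p. For scale, they hold 139 of all 6024 elements, and 89 of the 460 genes that WT induced and that Δ*ire1* left below WT. All these classes except the one that fell further without Gcn4p were drawn from the 460. Of the elements in the first 139 rows Δ*gcn4* was below WT for 91, and of those in the other 5885 rows for 26 (0.442%). *ERO1* lies in the run of 76, *LHS1* in that of 35, and *DHH1* in that of 2, while *OPI3* and *KAR2* lie in the rest of the table. *SIL1*, *MPD1*, *EUG1*, *ERJ5*, *HRD1*, *SEC26*, and *ERV25*, called lower than WT in Δ*gcn4*, also lie in the first 139 rows. *JEM1*, *SCJ1*, *FPR2*, *HRD3*, *SEC23*, *ERP2*, *RET2*, and *SEC21* were not called lower in Δ*gcn4* and lie in the rest. *MCD4* and *PDI1* were not called lower and yet lie in the first rows. Whether the splits within gene lists go with function or placement was not tested.

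All 3 deletion strains were below WT in these rows. The median difference from WT was −0.80 for Δ*ire1*, −0.83 for Δ*gcn4*, and −0.59 for Δ*gcn2*, against 0.04, 0.01, and 0.07 in the rest of the table, and these comparisons share the WT arrays. The difference between Δ*ire1* and Δ*gcn4*, which uses no WT array, had a median of −0.02 in the first 139 rows and 0.03 in the rest. The shares of calls were less alike, with 20.9% lower and 19.4% higher in Δ*ire1* in these rows, and 12.6% and 13.1% in the rest. Of the 460 genes that WT induced and that Δ*ire1* left below WT, 89 lie in these rows, with 27 lower and 11 higher. Of the 371 in the rest, 258 were lower and none was higher. Within the first 139 rows the difference also varied between runs. In the run of 35, 12 elements were lower in Δ*ire1* than in Δ*gcn4* and none was higher, with a median of −0.33. In the run of 76, 15 were lower and 20 were higher, with a median of 0.15.

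**Figure D5:**
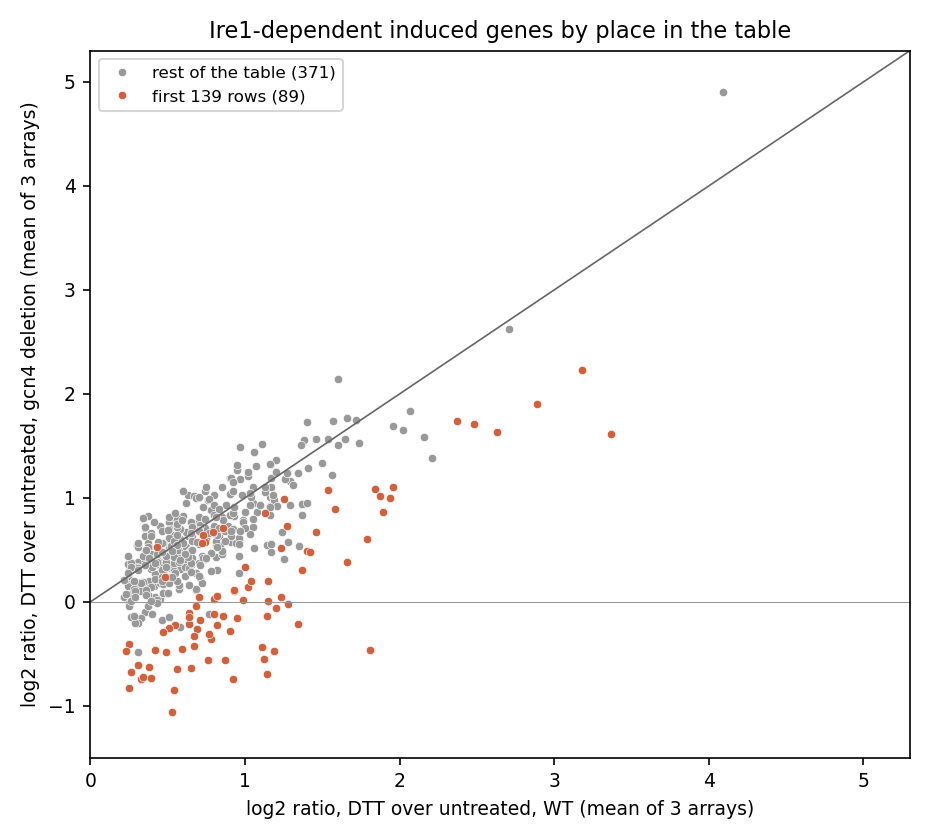
Mean log2 ratio of DTT over untreated cells in WT (x axis) and Δ*gcn4* (y axis) for the 460 genes that WT induced and that Δ*ire1* left below WT, with the line of equal response. Most of the 89 genes from the first 139 rows lie below the line (median Δ*gcn4* minus WT −0.94), and the 371 from the rest of the table lie along it (median −0.11).

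On the higher side, the cytosolic heat shock genes stood out. Of 22 measured, 12 were higher in Δ*ire1* than in Δ*gcn4* (54.5%, against 13.2% of all elements) and none was lower. The median log2 ratios were 0.82 in Δ*ire1* and 0.18 in Δ*gcn4*. After DTT 17 of the 22 were called higher in Δ*ire1* and 7 in Δ*gcn4*. Compared with WT, 4 were higher in Δ*ire1* (10.9% of all elements were) and 2 lower in Δ*gcn4*. *HSP104*, the disaggregase, was at 1.67, 1.62, and 2.25 in Δ*ire1* and at 0.25, 0.64, and 0.31 in Δ*gcn4* (1.44 ± 0.19, 2.72-fold, adjusted p = 0.00012), against 1.47 in WT and 0.69 in Δ*gcn2*. *BTN2*, which collects misfolded proteins for sequestration, was at 2.56, 2.06, and 3.12 against 0.06, 0.78, and −0.13 (2.34 ± 0.31, adjusted p = 0.00014), and its relative *CUR1* differed by 1.65 (adjusted p = 0.0034). *HSP82*, an Hsp90, was at 1.67, 1.17, and 2.37 against 0.36, 0.71, and 0.17 (1.32 ± 0.27, adjusted p = 0.0025), and since *HSC82* is nearly identical, the elements of the pair may bind both transcripts.

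Of 33 proteasome genes 11 were higher in Δ*ire1* (33.3%) and 1, *PUP1*, was lower (−0.65, adjusted p = 0.0076). *RPN4*, the transcription factor of the proteasome genes, was at 1.36, 1.17, and 0.88 in Δ*ire1* and at 0.04, 0.13, and −0.25 in Δ*gcn4* (1.16 ± 0.15, adjusted p = 0.00011), against 0.32 in WT. Subunit genes differed less, with *PRE7* at 0.66 and *RPT2* at 0.57. Of 28 genes of thiol and oxidative defense 10 were higher (35.7%) and 4 were lower (14.3%). *GSH1*, the first enzyme of glutathione synthesis, was at 0.06, 0.44, and 0.86 against −0.54, −1.06, and −0.62 (1.19 ± 0.22, adjusted p = 0.0012), and *GTT2*, *SOD2*, and *GRX2* differed by 1.08, 1.02, and 0.95. Of 22 genes of general stress and reserve carbohydrate 8 were higher (36.4%) and 1, *GSY1*, was lower (−1.19, adjusted p = 0.0028). *HSP12* was at 1.10, 1.18, and −0.16 in Δ*ire1*, where replicate 3 lay far below the others, and at −0.21, −0.53, and −0.33 in Δ*gcn4*. *YGP1* was at 0.26, 0.29, and 0.66 against −1.55, −1.01, and −1.24 (1.67 ± 0.18, adjusted p = 2.4e-05).

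Many genes on the higher side were ones that fell after DTT in WT and Δ*gcn4* and fell less, or not detectably, in Δ*ire1*. Of the 797, 338 were called lower after DTT in WT (39% of all elements were) while Δ*ire1* lay above WT. Of the 338, Δ*gcn4* lowered 321 as well, and 98 were still called lower after DTT without Ire1p. Genes of the respiratory chain and ATP synthase, a list drawn up after the values had been seen, held 25 of the 338. Of 37 measured, 25 were higher in Δ*ire1* than in Δ*gcn4* (67.6%) and none was lower, and the median was −0.55 for Δ*ire1*, −1.23 for Δ*gcn4*, and −1.36 for WT. *QCR7*, a subunit of the cytochrome bc1 complex, was at −0.96, −0.71, and −0.31 against values between −2.10 and −1.75 (1.29 ± 0.16, adjusted p = 9e-05). *COX5A*, a cytochrome oxidase subunit, was at −1.03, −0.52, and −0.57 against −2.21, −1.72, and −1.91 (1.24 ± 0.16, adjusted p = 0.00012), and the ATP synthase subunit *ATP20* differed by 1.44.

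*FAB1*, the kinase that makes phosphatidylinositol 3,5-bisphosphate, had the same form. It was at 0.00, −0.06, and 0.26 in Δ*ire1* and at −1.68, −2.90, and −2.14 in Δ*gcn4* (2.31 ± 0.28). *PHO89*, a sodium-phosphate cotransporter, also fell in WT (−0.92) and Δ*gcn4*, but it was called higher after DTT in Δ*ire1*. Its values were 0.51, 1.17, and 0.57 against −1.20, −1.16, and −0.93 (1.85 ± 0.19). *PRM5* was at 2.75, 2.08, and 1.09 against 0.54, −0.35, and 0.71 (1.67 ± 0.39, adjusted p = 0.0061), and its WT mean was −0.34. Its response was not called in WT or Δ*gcn4*.

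Amino acid synthesis, the best known target of Gcn4p, showed few differences in the direction of a loss of the response to DTT in Δ*gcn4*. Each ratio compares treated with untreated cells of one strain, so a lower expression in untreated Δ*gcn4* cells cannot be seen here. Of 59 genes 10 were lower in Δ*ire1* (16.9%) and 2 were higher (3.39%), and 44 and 30 were called lower after DTT in Δ*ire1* and Δ*gcn4*. *HIS4*, of histidine synthesis, was at −1.02, −0.85, and −0.56 in Δ*ire1* and at 0.75, 0.53, and 0.68 in Δ*gcn4* (−1.46 ± 0.17, adjusted p = 5.2e-05). *ILV6*, the regulatory subunit of acetolactate synthase, was at −1.84, −1.53, and −0.55 against −0.29, 0.24, and 0.23 (−1.37 ± 0.27, adjusted p = 0.0021). *GLN1*, glutamine synthetase, was higher in Δ*ire1* by 0.70 (adjusted p = 0.018), and it did not pass without Δ*ire1* replicate 2 or Δ*gcn4* replicate 2 or 3 (0.072 to 0.08).

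Growth-related genes were mostly called lower after DTT in both strains. Of 48 ribosome biogenesis genes 3 were lower and 5 higher in Δ*ire1* (6.25% and 10.4%), with medians of −0.58 and −0.68 in the 2 strains, and 43 and 46 were called lower after DTT. Of 119 ribosomal protein genes 2 were lower and 16 higher (1.68% and 13.4%), with medians of −0.88 and −0.98, and 116 were called lower after DTT in each strain. Their shares of higher calls lay near the 13.2% of all elements, or below it. Pairs of ribosomal protein genes are nearly identical in sequence, so single members are uncertain. For the remaining lists the counts were small. Of 21 genes of ER translocation 4 were lower and 3 higher, of 27 of sulfate assimilation and methionine synthesis 5 and 3, of 14 amino acid permeases 1 and 1, and of 21 of ergosterol synthesis 1 and 3. Of 16 iron uptake genes none was lower and 3 were higher, of 18 cell wall genes none and 3, and of 7 zinc uptake genes 2 (28.6%) and none, the 2 being the activator *ZAP1* (−1.37) and *ZPS1* (−0.78). Genes of meiosis and of the other mating type, which these cells do not use, gave 1 lower and 5 higher of 26 (3.85% and 19.2%), so the shares on other lists near these values are not results about those lists.

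Of the genes of the pathway itself, *HAC1* did not pass. It was at 0.56, 0.77, and −1.13 in Δ*ire1* and at 0.23, 1.25, and 1.71 in Δ*gcn4*, with a difference of −0.99 ± 0.40 and an adjusted p of 0.075, and without Δ*ire1* replicate 3 the difference was −0.40 (adjusted p = 0.32). It passed without Δ*ire1* replicate 2 (−1.35, adjusted p = 0.033), without Δ*gcn4* replicate 1 (−1.41, adjusted p = 0.014), and with array weights (−0.94, adjusted p = 0.018). An array of open reading frames does not separate spliced from unspliced *HAC1*. *GCN2* differed by −0.01 ± 0.21. *GCN4* differed by 0.31 (adjusted p = 0.10, or 0.035 with array weights), though its ratio in Δ*gcn4* cells, which lack the gene, is no measure of its response. *SUI2*, which encodes the α subunit of eIF-2, was lower in Δ*ire1*, at −1.03, −1.04, and −0.85 against −0.34, −0.17, and −0.21 (−0.74 ± 0.12, adjusted p = 0.00068). *TRL1*, the ligase that joins the *HAC1* exons, was higher by 0.47 (adjusted p = 0.038), which did not pass without replicate 1 or 3 of Δ*ire1* or replicate 2 or 3 of Δ*gcn4* (0.073 to 0.16).

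The other genes that gave their promoters to the study's motifs were lower in Δ*ire1*. *TRK2*, a potassium transporter, was at −0.45, −0.11, and −0.39 against 0.67, 1.01, and 1.10 (−1.24 ± 0.16, adjusted p = 0.00011). *DOG1*, a sugar phosphatase, was at 1.00, 0.94, and 0.29 against 1.34, 1.92, and 1.88 (−0.97, adjusted p = 0.0046), above zero on all 6 arrays. *EDC1*, an activator of mRNA decapping, was at −0.53, −0.92, and −0.94 against −0.07, 0.28, and 0.52 (−1.04, adjusted p = 0.0016). *BIR1*, a chromosomal passenger protein, was at 0.25, 0.26, and −0.17 against 1.01, 0.58, and 0.73 (−0.66, adjusted p = 0.014).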

How the data were processed

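The values are log2 ratios of DTT-treated over untreated cells, which the authors deposited for 6024 elements on 12 two-color spotted arrays. Messenger RNA was purified with PolyATtract, and no normalization within the arrays is given in the sources used here. The labels state the direction of the ratio. No signals of the separate channels were used, so only the number of arrays sets the precision. Of the elements, 5432 have 1 gene symbol, none has several, and 592 have none, and 5427 were matched to the gene annotation. An element for *IRE1* was not analysed here.

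A mean for each of 4 strains was fitted to all 12 arrays with limma 3.58.1 in R 4.3.3, without a covariate, and p was adjusted over 6024 elements by Benjamini and Hochberg with a threshold of 0.05 (15.5 degrees of freedom). The spread is that between arrays, which the study calls independent experiments. On simulated arrays, 27% of differences of 0.5 and 89% of differences of 1 were recovered between Δ*ire1* and Δ*gcn4*, and 6.45% of calls were false. The simulation used independent normal noise and changed far fewer elements than were called on the real arrays. Its rates therefore need not hold for them.

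Genes named are the 15 largest differences each way without overlap of arrays, the 10 leading genes of each class, genes the study names, all ER folding genes, and up to 4 of each other list of 25, from which some were left out of the text. The comparison, classes, and lists were chosen with earlier results of these data known. One list, of the respiratory chain, was added later. Alternatives were centering, scaling, a fit to 6 arrays, array weights, a replicate block, stricter bounds, and leaving out each array. Leaving out the first 139 rows was added after the data had been seen.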

Additional observations from a re-analysis of the deposited data

Results flagged for a closer look

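Named genes are listed here where the response to DTT passed the test in both strains but in opposite directions, and the difference between the strains passed as well (limma, adjusted over 6024 elements). Over all elements this held for 132 that were lower in Δ*ire1* and higher in Δ*gcn4*, and for 69 that were the other way. On the lower side, the differences of Δ*ire1* minus Δ*gcn4* were largest for *PUF4* (−2.67), *ALG3* (−2.42), *DER1* (−2.05), *STP22* (−1.86), *SKG3* (−1.84), *CLP1* (−1.76), *HMG2* (−1.69), and *HEM15* (−1.65), all lower after DTT in Δ*ire1* and higher in Δ*gcn4*. The same held for *ALG7* (−1.51), *HIS4* (−1.46), *ZAP1* (−1.37), *ERP2* (−1.34), *FPR2* (−1.29), *SEC16* (−1.27), *TRK2* (−1.24), and *RET2* (−1.10). It also held for *SUL2* (−1.05), *MPD2* (−0.82), *SBH1* (−0.79), *ZPS1* (−0.78), *GPI12* (−0.76), *MET22* (−0.73), *SEC66* (−0.71), and *PUP1* (−0.65). Higher after DTT in Δ*ire1* and lower in Δ*gcn4* were *ZIP1* (0.63), *PRE7* (0.66), *SOD2* (1.02), *GTT2* (1.08), *GSH1* (1.19), *MIX23* (1.29), *YDR222W* (1.48), *YGP1* (1.67), *PHO89* (1.85), *SDP1* (1.97), and element 1963 (2.21). The calls of a response within a strain depend on centering, which raised the elements called higher after DTT to 1321 in Δ*ire1* and 1540 in Δ*gcn4*. These lists were not formed again on centered arrays.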

How the results depend on the processing

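The counts of 772 lower and 797 higher elements were 823 and 765 after centering, 969 and 898 after centering and scaling, 1067 and 1120 with array weights, and 865 and 929 with the replicate block. In a fit to the 6 arrays alone 541 were lower and 521 higher, where the classes, which need WT, could not be formed. With a difference of at least 1, 122 and 91 were left. Leaving out 1 array gave 512 to 853 lower and 508 to 877 higher elements, 202 to 290 genes that need Ire1p but not Gcn4p, 25 to 43 that fell further without Gcn4p, and 50 to 66 alike in both. Array weights gave 69 genes that fell further without Gcn4p, and the strict bound of 0.5 left 19 alike in both. Without the first 139 rows, 10 and 7 of these classes were left. The responses within a strain depended on centering. Elements higher after DTT numbered 1321 in Δ*ire1* and 1540 in Δ*gcn4* after centering, and 1535 and 1569 after scaling, and elements lower in Δ*ire1* numbered 1399 after centering. Of 155 named genes 140 passed, 114 of these passed in all 11 alternatives, and none reversed. Arrays of Δ*ire1* and Δ*gcn4* with the same number did not vary together (correlations of 0.149, −0.0457, and 0.13), and under the block no named gene lost or gained a call. The cause of these changes was not tested. Signals of the spots were not used, so limits from weak spots are unknown.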
